A study of Mus musculus with 6 samples.

Results

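The Ifitm genes encode small interferon-induced membrane proteins. Those examined here were Ifitm1, Ifitm2, Ifitm3, Ifitm5, Ifitm6 and Ifitm7, taken as every probe set that the array annotation pairs with one of these symbols. That gave 9 probe sets for 6 genes, of 35556 probe sets and 19938 genes on the array, and no Ifitm probe set named several genes. The family was chosen from the measured values of Ifitm3, which was high on only 2 of the 3 diabetic arrays, so the values of Ifitm3 are given as a description with no test.

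The RNA came from migrating keratinocytes, the leading cells of the epithelial tongue that closes a skin wound, in wounds harvested on day 3. The diabetic group were mice made diabetic with a diet high in fat and fructose, given for 16 weeks from 8 weeks of age, and the normal group received a control diet for as long. No strain, sex or allele was given for either group, and every mouse was wounded. Cells were collected by laser capture from fixed tissue guided by E-cadherin staining and pooled over the sections of a sample, with 3 arrays per group. The titles call these arrays biological replicates, but no label ties each to a mouse of its own. The p-values therefore reflect how far the 3 samples of a group differ from each other, moderated by the variances of all genes. They do not rest on a known spread between mice.

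IFITM proteins sit in the plasma membrane and in endosomes and hinder the fusion of enveloped viruses with the cell. IFITM3 acts mainly in late endosomes and lysosomes, where its trafficking depends on an endocytic signal near its amino end and its activity on palmitoylation, while IFITM1 stays largely at the cell surface. Interferons bind receptors that signal through JAK kinases to STAT and IRF factors, and these factors act on interferon-stimulated response elements (ISREs) and gamma-activated sites (GAS) near the start of target genes. IFITM5, also known as BRIL, is a protein of bone-forming cells and is not known for an interferon response.

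The stretches of DNA around the start of Ifitm3 and of its neighbours Ifitm2 and Ifitm1 are shown because these 3 genes are the classical interferon-induced members, and the results below turn on how Ifitm3 differed from its relatives. Each runs from base -100 to base 29 of the transcript start in RefSeq, mouse assembly GRCm38.p6, with matches to the ISRE core in capitals. Ifitm3 is chr7:141010716-141010844 on the minus strand, Ifitm2 is chr7:140955933-140956061 on the minus strand, and Ifitm1 is chr7:140967976-140968104 on the plus strand.
Ifitm3: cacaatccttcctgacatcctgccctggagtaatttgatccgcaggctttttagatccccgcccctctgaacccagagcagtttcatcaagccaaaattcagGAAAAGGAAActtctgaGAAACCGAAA
Ifitm2: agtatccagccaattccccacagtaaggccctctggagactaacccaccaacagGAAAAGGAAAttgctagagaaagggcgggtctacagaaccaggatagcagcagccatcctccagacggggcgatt
Ifitm1: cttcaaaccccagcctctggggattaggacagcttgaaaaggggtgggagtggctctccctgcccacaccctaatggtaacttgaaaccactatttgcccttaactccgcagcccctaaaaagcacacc

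The ISRE core was searched as GAAANNGAAA on both strands in windows of 300 bases, from 250 bases before the start to 50 after it, and all 6 members had 1 such window. Ifitm3 held 2 matches, at bases 3 to 12 and 20 to 29 after the start, and Ifitm2 held 1, at bases -46 to -37. The other 4 members held none. Of 32851 such windows 3.44% held at least 1 match and 0.225% held 2 or more. A GAS core, searched as TTCNNNGAA, was present once in Ifitm3, at bases 14 to 22, where it overlaps the second ISRE match, and once in Ifitm6, at bases -10 to -2, against 8.3% of all windows. These matches describe the sequence only, and no measurement of binding was used here.

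Signals were low across the arrays, so a background limit was set on each array as the 95th percentile of the signals of 1194 chemosensory (olfactory or vomeronasal) receptor genes, and it lay between 1.98 and 2.12 on the log2 scale. Base 2 was inferred from the range of the values and is not stated in the sources used here, and every fold and linear signal below rests on it. A gene at or under the limit has only a bound on its level, and for genes near 2 the call depends on the percentile chosen. The share of genes above it was 35.3%, 36.6% and 29.4% on diabetic arrays 1 to 3 and between 27.4% and 28.7% on the normal arrays. Of 18 keratinocyte markers 8 had the higher mean in diabetic and 10 in normal samples, and 4 were above the limit on all 6 arrays (Krt10, Krt15, Sfn and Itgb4, named after their values were seen) and 5 on none. Cdh1, the E-cadherin gene that guided the capture, was under it on all 6 (1.84 to 1.92 diabetic, 2.01 to 2.06 normal). The basal keratin genes Krt5 and Krt14 were each above it on 2 diabetic and 0 normal arrays, and Trp63, the basal transcription factor gene, on 0 diabetic and 2 normal arrays. The limit was lower on diabetic arrays 1 and 2 (1.98 and 2.01) than on diabetic array 3 and the normal arrays (2.11 to 2.12). Such counts can therefore differ without a higher signal. Krt14 was above the limit at 2.05 on diabetic array 2 but under it at 2.07 on normal array 2. Fewer cells of a type and less RNA per cell cannot be told apart in such pooled samples.

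Ifitm3 (probe set 10569017) had a log2 signal of 3.30, 1.78 and 3.29 on diabetic arrays 1, 2 and 3, and of 1.62, 1.37 and 1.68 on normal arrays 1, 2 and 3. Diabetic arrays 1 and 3 were high and nearly equal, and were above the background limit even when it was set at the 99th percentile of the receptor genes. Diabetic array 2 was under the limit, as were all 3 normal arrays. It exceeded the highest normal array by 0.11 and fell short of diabetic array 3 by 1.5 on the log2 scale, which is 2.83-fold in signal. The groups therefore did not overlap, but by that small margin. Over all genes, 10.7% had groups that did not overlap, and since the values of Ifitm3 led to its choice nothing is read from its count.

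The diabetic mean of Ifitm3 was 2.79 ± 0.87 (SD, n = 3) and the normal mean 1.56 ± 0.16 (SD, n = 3). The difference was 1.24, or 2.35-fold in signal, and is given with the SD of each group alone, since no test was made. The SD within the diabetic group was several times that of the normal group. Leaving out diabetic array 2 gave a difference of 1.74, while leaving out diabetic array 1 or 3 gave 0.98 or 0.99. With 4 of the 6 arrays under the limit, the normal level and the level of diabetic array 2 are bounds, and the ratio of signals can understate a ratio of RNA.

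**Figure D1:**
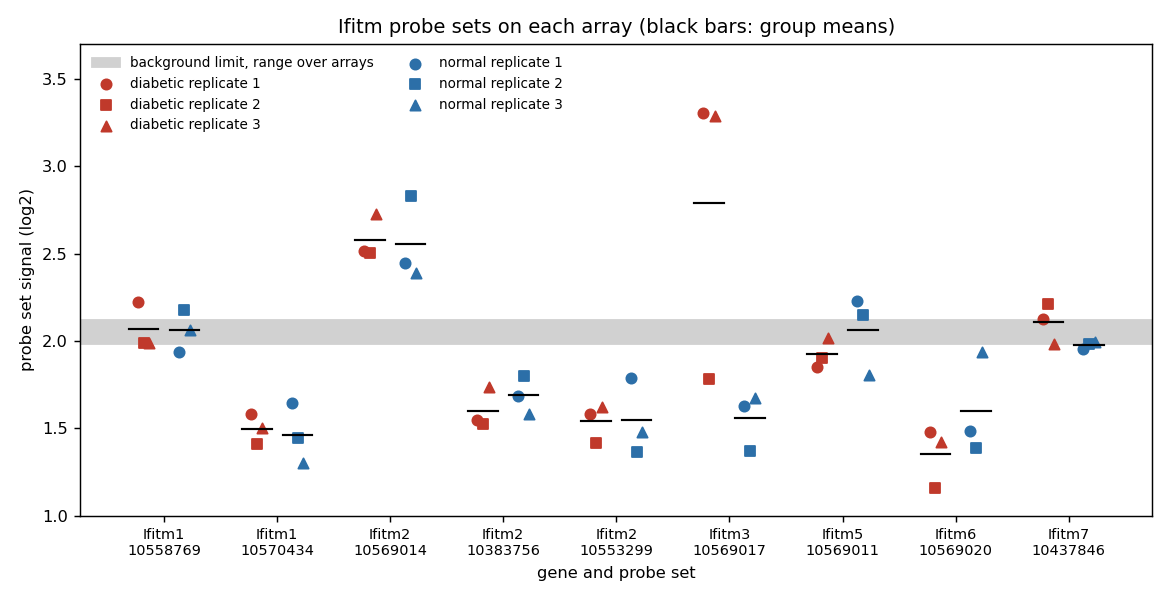
Log2 signal of each of the 9 Ifitm probe sets (x axis) on the 3 diabetic (red) and 3 normal (blue) arrays, with black bars at the group means and a grey band for the background limit, 1.98 to 2.12. Diabetic replicates 1 and 3 stand at 3.30 and 3.29 for Ifitm3, and the groups overlap for every other probe set.

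The closest relatives of Ifitm3 did not show its pattern. Ifitm2 (probe set 10569014), the paralog whose protein is also found in endosomes, was above the limit on all 6 arrays. Its log2 signal was 2.51, 2.5 and 2.73 on diabetic arrays 1 to 3 and 2.45, 2.83 and 2.39 on normal arrays 1 to 3. The highest value belonged to normal array 2, the array lowest for Ifitm3, and the groups overlapped. The difference for Ifitm2 was 0.02 (SE 0.15, limma adjusted p 0.99), with a 95% confidence interval from 0.81-fold to 1.28-fold in signal. The 2 further probe sets annotated to Ifitm2, 10383756 and 10553299, were under the limit on every array, at 1.42 to 1.73 diabetic and 1.37 to 1.80 normal. They differed by -0.09 (SE 0.11) and -0.01 (SE 0.13).

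Ifitm1 (probe set 10558769), the cell-surface member, had a log2 signal of 2.22, 1.99 and 1.99 on diabetic arrays 1 to 3 and 1.94, 2.18 and 2.06 on normal arrays 1 to 3. It was above the limit on diabetic array 1 and normal array 2 alone. The difference was 0.01 (SE 0.13, limma adjusted p 0.995), with an interval from 0.83-fold to 1.21-fold. A second Ifitm1 probe set, 10570434, stayed under the limit on all 6 arrays and differed by 0.03 (SE 0.11). No direction is read from such small differences, since for Ifitm1 and Ifitm2 the sign turned under another scaling of the arrays. The probe sequences were not used here, and binding of RNA from near-identical paralogs to one probe set was not tested.

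Ifitm5 (probe set 10569011), the bone member, gave a log2 signal of 1.85, 1.91 and 2.02 on diabetic arrays 1 to 3 and 2.23, 2.15 and 1.81 on normal arrays 1 to 3. Normal arrays 1 and 2 were above the limit and the other 4 arrays were not. The difference was -0.14 (SE 0.13, limma adjusted p 0.921), with an interval from 0.74-fold to 1.12-fold. Of 5 measured bone-cell markers 2 exceeded the limit on every array and 1 exceeded it nowhere, and their summed linear signal ran from 22.2 to 24.2 in diabetic and from 21.0 to 23.5 in normal samples.

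Ifitm6 (probe set 10569020), the gene next to Ifitm3, was under the limit on every array. Its log2 signal was 1.48, 1.16 and 1.42 on diabetic arrays 1 to 3 and 1.48, 1.39 and 1.94 on normal arrays 1 to 3, with normal array 3 highest. The difference was -0.25 (SE 0.15, limma adjusted p 0.893), from 0.67-fold to 1.05-fold. Ifitm7 (probe set 10437846), which lies on chromosome 16 away from the other members, was at 2.12, 2.21 and 1.98 on diabetic arrays 1 to 3 and 1.96, 1.99 and 1.99 on normal arrays 1 to 3. It was above the limit on diabetic arrays 1 and 2 and on no normal array, but on all 3 arrays of both groups with the limit at the 90th percentile and on none at the 99th. The difference was 0.13 (SE 0.12, limma adjusted p 0.918), from 0.92-fold to 1.30-fold.

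None of the 5 members other than Ifitm3 passed an adjusted p under 0.05 in limma, and none had an unadjusted p under 0.05. Over all 19938 genes the share that passed the adjusted threshold was 0%, the share with an unadjusted p under 0.05 was 5.56%, and the share that also differed by at least 1.5-fold was 0.256%. With so few genes called anywhere, a count of 0 among 5 members is what the array as a whole showed. The 95% confidence intervals of these 5 members lay within 1.5-fold in either direction, which for genes at background describes signal and not RNA.

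Within the family the correlation with Ifitm3 over the 6 arrays was 0.20 for Ifitm1, 0.11 for Ifitm2, 0.17 for Ifitm7, -0.08 for Ifitm6 and -0.35 for Ifitm5. These are descriptions over 6 arrays that also share their scaling. No member was high on diabetic arrays 1 and 3 alone besides Ifitm3.

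Ifitm5, Ifitm2, Ifitm1, Ifitm3 and Ifitm6 lie next to each other on chromosome 7 in the RefSeq order, with 1 pseudogene and 1 long noncoding RNA gene between Ifitm1 and Ifitm3. The 3 nearest measured protein-coding genes on the Ifitm5 side were Pgghg, a glucosidase gene, the inflammasome gene Nlrp6 and the muscle cytochrome oxidase gene Cox8b, which differed by 0.16 (SE 0.16), -0.08 (SE 0.13) and 0.15 (SE 0.11). On the Ifitm6 side were the glycosyltransferase gene B4galnt4, the desmosomal plakophilin gene Pkp3 and Sigirr, a brake on interleukin-1 and Toll-like receptor signalling, which differed by 0.06 (SE 0.13), -0.02 (SE 0.14) and -0.16 (SE 0.13). All 6 neighbours had a limma adjusted p of at least 0.911. Over all genes 0% passed an adjusted p under 0.05, so that none of the neighbours did is not particular to this stretch of the chromosome. Pkp3, Sigirr and Nlrp6, on both sides of the cluster, were above the limit on all 6 arrays. With the limit at the 99th percentile of the receptor genes they were under it on all 6, so this call depends on the percentile chosen.

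**Figure D2:**
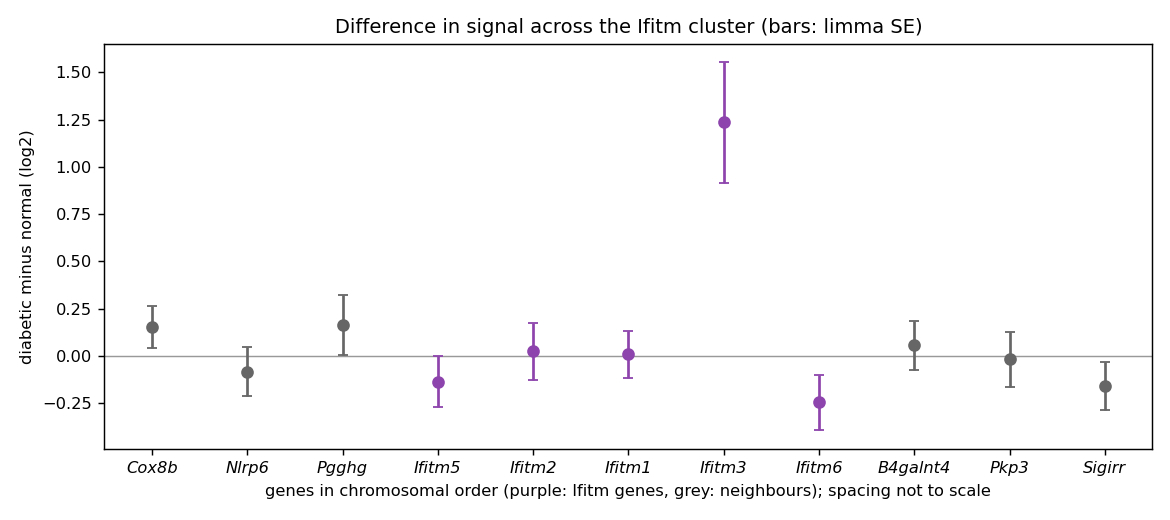
Difference in log2 signal, diabetic minus normal (y axis, bars are limma standard errors, n = 3 arrays per group), for the 5 clustered Ifitm genes (purple) and 3 protein-coding neighbours on each side (grey) in chromosomal order. Ifitm3, whose values led to the choice of the family, stands at 1.24 and the other 10 genes lie between -0.25 and 0.16. The bar of Ifitm3 is moderated by the variances of all genes, and no test is read from it.

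Genes of the interferon pathway outside the family were taken from lists ordered by role, of which 99 of 111 genes had a probe set of their own. Diabetic samples had the higher mean for 44 and the lower for 55 of them, the median difference being -0.02, where 48.7% of all genes were higher and the median over all genes was below 0.01 in size. None passed the adjusted threshold in limma, the smallest adjusted p being 0.780. At an unadjusted p under 0.05 there were 1 higher and 5 lower (6.06%, beside 5.56% of all genes), and 0 of them differed by 1.5-fold or more. The background limit was exceeded by 17 of the 99 on every array, while 59 exceeded it nowhere.

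The interferon ligand genes had 6 of 10 members higher, with a median difference of 0.05, and none at an unadjusted p under 0.05. Ifna4 was at 1.89, 1.73 and 1.71 on diabetic arrays 1 to 3 and 1.55, 1.5 and 1.63 on normal arrays 1 to 3. Ifnb1 was at 1.63 to 1.67 diabetic and 1.69 to 2.00 normal, and both genes were under the limit on every array. Of the 10 ligand genes 6 were above the limit on no array and 2 on all 6. Those 2 were Ifna5 (4.191 to 4.432 diabetic, 4.002 to 4.225 normal) and Ifnl2 (3.651 to 4.333 diabetic, 2.909 to 4.1 normal). Receptors had 2 of 6 members higher, with a median difference of -0.02. Ifnar1, a chain of the type I interferon receptor, differed by -0.30 (SE 0.16, limma adjusted p 0.893), at 1.92, 1.82 and 1.72 on diabetic arrays 1 to 3 and 2.36, 2.26 and 1.75 on normal arrays 1 to 3. Ifnar1 was above the limit on 2 normal and 0 diabetic arrays, and its partner Ifnar2 differed by -0.18 (SE 0.10) and was above it on none.

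Signalling genes had 11 of 17 members higher, with a median difference of 0.03. The kinase gene Jak1 differed by -0.31 (SE 0.16), the SUMO ligase gene Pias1 by -0.23 (SE 0.10), Irf3 by 0.21 (SE 0.13) and Irf7, the factor that amplifies interferon production, by 0.20 (SE 0.13). Irf7 was at 1.98, 1.85 and 2.25 on diabetic arrays 1 to 3 and 1.78, 1.85 and 1.87 on normal arrays 1 to 3. Irf7 was above the limit on diabetic array 3 alone. It was the 1 gene of the 99 whose correlation with Ifitm3 over the 6 arrays exceeded 0.8, a share of 1.01% beside 2.41% of all genes other than Ifitm3. Negative correlations reached -0.86 (Parp14), and the share of all genes that low was not counted. The median correlation was -0.08 for the 99 and -0.045 for all other genes. Sensors of foreign nucleic acid had 4 of 12 higher, with Tlr9 at 0.31 (SE 0.15), Cgas at -0.23 (SE 0.12) and the RNA helicase gene Ifih1 at -0.24 (SE 0.13).

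The interferon-stimulated genes split into 21 higher and 33 lower of 54, and their median difference was -0.03. The 4 with the smallest p were the GTPase gene Mx2 (-0.41, SE 0.11, limma adjusted p 0.780), Ifit3b (-0.30, SE 0.11), Rtp4 (-0.27, SE 0.11) and the peptide transporter gene Tap1 (0.27, SE 0.11). All 4 were under the limit on all 6 arrays. Mx2 was at 0.99, 1.1 and 1.2 on diabetic arrays 1 to 3 and 1.39, 1.39 and 1.73 on normal arrays 1 to 3, so diabetic arrays 1 and 3 were not high as they were for Ifitm3. The median signal of the 54 genes was 1.66, 1.69 and 1.78 on diabetic arrays 1 to 3 and 1.77, 1.73 and 1.73 on normal arrays 1 to 3. These medians were under the background limit on every array, and 37 of the 54 genes exceeded it nowhere and 8 on every array. The order of the arrays by this median is therefore one of signals at background. Diabetic arrays 1 and 3, nearly equal for Ifitm3, were the lowest and the highest of the 6 for this median, and diabetic array 1 also had the lowest median over all genes (1.79, against 1.80 to 1.83).

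**Figure D3:**
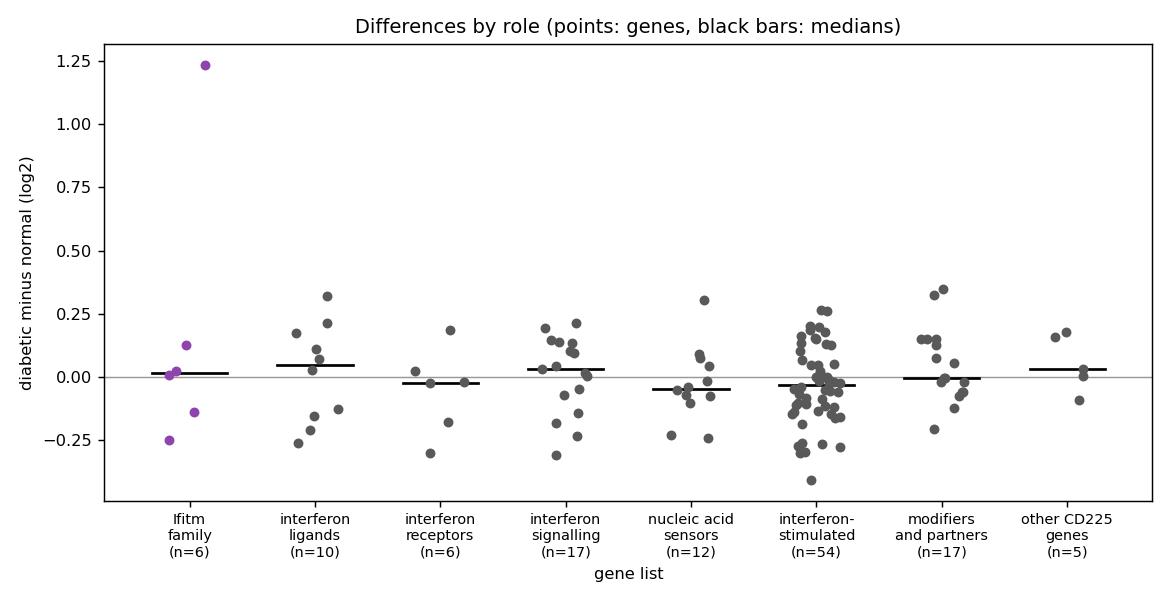
Difference in log2 signal, diabetic minus normal (y axis), for single genes grouped by role (x axis), with black bars at the list medians and the Ifitm family in purple. The point at 1.24 is Ifitm3, whose values led to the choice of the family, so nothing is read from its distance to the others. The differences of the 99 interferon pathway genes run from -0.41 for Mx2 to 0.32 for Ifnl2.

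Genes that modify or bind IFITM proteins had 8 of 17 members higher, with a median difference below 0.01 in size. Zdhhc20, a palmitoyltransferase for IFITM3, differed by 0.35 (SE 0.15, limma adjusted p 0.871), with 1.83, 2.02 and 2.34 on diabetic arrays 1 to 3 and 1.79, 1.54 and 1.81 on normal arrays 1 to 3. Vapa, an endoplasmic reticulum tether that binds IFITM proteins, differed by 0.33 (SE 0.14, limma adjusted p 0.871), with 2.45, 2.23 and 2.00 on diabetic arrays 1 to 3 and 1.88, 1.83 and 1.98 on normal arrays 1 to 3. These were the 2 of 17 members with an unadjusted p under 0.05 (5.56% of all genes) and also the 2 whose groups did not overlap (10.7% of all genes). Both were above the limit on 2 diabetic and 0 normal arrays, though not the same pair of arrays, and Zmpste24, a protease that works with IFITM proteins, differed by -0.21 (SE 0.13). Of 5 measured genes with the same CD225 domain outside the family 4 were higher, and none had an unadjusted p under 0.05. Trarg1 differed by 0.18 (SE 0.14), Tmem91 by 0.16 (SE 0.14), Ifitm10 by -0.09 (SE 0.15) and Syndig1 by 0.03 (SE 0.18). Correlations with Ifitm3 over the 6 arrays were 0.84 for Trarg1, 0.80 for Tmem91, 0.54 for Syndig1, -0.01 for Syndig1l and -0.64 for Ifitm10. Of all genes other than Ifitm3, 2.41% exceeded 0.8.

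The genes with a signal most like that of Ifitm3 were sought among 270 genes whose highest and lowest arrays differed by at least 1 on the log2 scale, leaving out predicted genes, small RNAs and chemosensory receptors. Prp2, a proline-rich protein gene, had the highest Pearson correlation (0.98 over 6 arrays), at 3.83, 3.06 and 3.92 on diabetic arrays 1 to 3 and 2.94, 2.91 and 3.24 on normal arrays 1 to 3. Morf4l2, a chromatin gene, followed at 0.92, and these were the only 2 of the 270 above 0.9. Next came Uqcr11 (0.90), a subunit of respiratory complex III, Cd63 (0.87), a tetraspanin of late endosomes and lysosomes, and Tmsb10 (0.85), an actin-binding thymosin. Chtf8 (0.84), a factor of sister chromatid cohesion, Nop56 (0.84), a small nucleolar RNP protein, and Cox6c (0.81), a subunit of cytochrome oxidase, completed the 8.

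Cd63 was at 3.21, 1.87 and 2.47 on diabetic arrays 1 to 3 and 1.97, 1.96 and 2.10 on normal arrays 1 to 3, and was above the limit on diabetic arrays 1 and 3 alone. In Cd63, Tmsb10, Nop56 and Cox6c diabetic array 1 was well above diabetic array 3, whereas the 2 arrays were nearly equal for Ifitm3. Both diabetic arrays 1 and 3 were at least 1 log2 unit above each of the other 4 arrays in 3 of 19938 genes. These were Ifitm3 and the small RNA genes Rny1 and Snord118, a list drawn up after the values were seen. The pattern was taken from Ifitm3 itself and no count is given for other pairs of arrays, so no rarity is read from it. These likenesses are descriptions over 6 arrays chosen from many genes and carry no test.

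**Figure D4:**
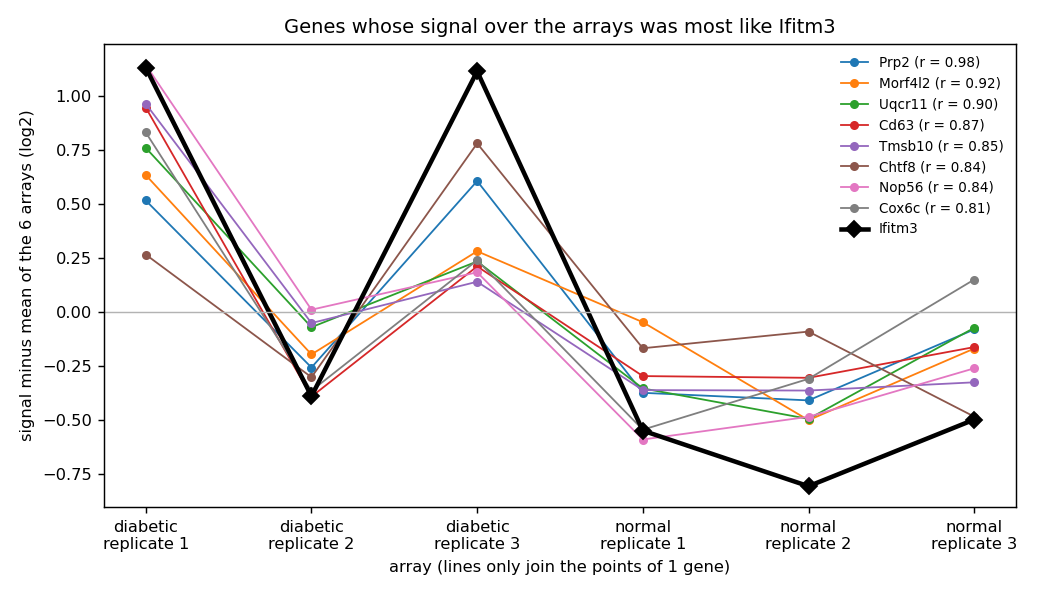
Log2 signal of Ifitm3 (black) and of the 8 genes most like it, each minus its own mean over the 6 arrays (y axis), on each array (x axis), with Pearson correlations in the legend. All 8 were lower on diabetic replicate 2 than on diabetic replicate 1, and Ifitm3 lay highest of the 9 genes on diabetic replicate 3.

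Markers of other cells that could be captured with the epithelium were set beside Ifitm3, which leukocytes, endothelium and fibroblasts also express. Of 13 measured macrophage and monocyte markers 11 were above the limit on no array and 1 on all, and their summed linear signal was 41.5 to 42.5 in diabetic and 43.0 to 44.0 in normal samples. For 13 neutrophil markers, 9 of them above the limit on no array, it was 43.9 to 44.4 and 44.3 to 48.3. Endothelial markers, with 3 of 10 above the limit on none, gave 40.8 to 43.4 and 40.1 to 41.6, and T cell and Langerhans cell markers, with 6 of 10 on none, 36.0 to 37.9 and 35.7 to 38.9.

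Diabetic array 2, the low array for Ifitm3, had the highest summed signal of 9 fibroblast markers (51.5). The sum was 43.3 and 48.2 on diabetic arrays 1 and 3 and 43.4 to 45.9 on the normal arrays. Col1a1, the brightest of the 9, weighed most in it, at 3.37, 4.14 and 3.88 on diabetic arrays 1 to 3 and 3.323 to 3.595 on the normal arrays. By the median of the 9 the arrays were closer, at 1.97, 2.13 and 2.12 diabetic and 1.98 to 2.10 normal. Of 10 skeletal muscle markers 9 had the higher mean in diabetic samples, where 48.7% of all genes did. None passed the adjusted threshold in limma (smallest adjusted p 0.812), and 2 had an unadjusted p under 0.05, the share over all genes being 5.56%. Their summed linear signal was 59.3, 54.8 and 51.9 on diabetic arrays 1 to 3 and 48.8 to 51.0 on the normal arrays. Diabetic array 3, high for Ifitm3, had the lowest of the 3 diabetic values for muscle. Leukocyte markers went both ways against the limit, and those named here were picked after their values were seen. The Fc receptor gene Fcgr1 (2.37 to 2.64 diabetic, 2.44 to 3.10 normal), Retnlg and the class II gene H2-Ab1 were above it on all 6 arrays, Cd8a on 2 diabetic and 3 normal arrays and S100a9 on 2 of each. The pan-leukocyte gene Ptprc, the macrophage genes Adgre1, Cd68 and Lyz2 and the neutrophil gene Ly6g were under it on all 6. The part of other cells in the Ifitm3 signal was not tested.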

How the data were processed

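Signals came from 6 whole-transcript arrays, 3 diabetic and 3 normal, grouped by title. Each deposited value was the signal of 1 probe set on 1 array, taken as log2 from the range of the values since no base is stated, with Partek named in the submitters' processing notes and the background correction, normalization and summarization not given in the sources used here. No scaling was added. Probe sets were named from the array annotation, with symbols updated by gene ID through RefSeq GRCm38.p6, and those naming several genes were left out. The brightest probe set by mean stood for a gene with several, leaving 19938 genes.

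The comparison of groups used limma (3.58.1, R 4.3.3): lmFit and eBayes with an intensity trend and group alone as a term, adjusting p over all 19938 genes by Benjamini-Hochberg. The other probe sets of a gene were fitted over all single-gene probe sets. SE is limma's moderated standard error, and the fit was tested on simulated data. The number of arrays limits the precision. The members and gene lists were chosen with earlier results of these data known. Named genes were all members, up to 4 of each list by smallest unadjusted p, the 8 genes most like Ifitm3, 3 neighbours on each side and 4 keratinocyte checks. Other names are ends of a range or were picked after their values were seen, and the marker lists are given mainly by counts and sums. From the marker lists only those that touch a result are given. Promoters came from RefSeq, and alternatives covered scaling, variance model, filters, probe sets, a replicate block and each array left out.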

Additional observations from a re-analysis of the deposited data

How the results depend on the processing

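The difference of Ifitm3 stayed between 1.2 and 1.24 under the scaling, variance and probe set alternatives, including 1.24 with the replicate number as a block (replicate block), and between 0.98 and 1.74 with 1 array left out. It was not tested among genes above the background limit on at least 3 arrays, since only 2 of its arrays pass. Ifitm5 and Ifitm6 stayed lower and Ifitm7 higher under every alternative in which they were fitted, but their size moved with 1 array left out: Ifitm5 ran from -0.264 (without normal replicate 3) to -0.0523 (without normal replicate 1), Ifitm6 from -0.355 to -0.0797 (without normal replicate 3) and Ifitm7 from 0.075 (without diabetic replicate 2) to 0.19. The adjusted p of the 5 tested members was at least 0.699 throughout. Ifitm1 turned to -0.0226 with arrays shifted to a common median of detected genes and -0.0104 with array weights, and Ifitm2 to -0.00563 with the shifted arrays and -0.0232 with the mean of probe sets. With 1 array left out Ifitm1 ran from -0.071 to 0.0663 and Ifitm2 from -0.0587 to 0.162. The cause was not tested. None of the 5 tested members and no interferon pathway gene was called under any alternative run. Over all genes, with 1 array left out, the adjusted count ran from 0 to 2 (2 without diabetic replicate 2, 1 without diabetic replicate 3), and the count at an unadjusted p under 0.05 with 1.5-fold ran from 57 to 109, against 51 with all arrays. The deviations of same-numbered arrays from their group means correlated at -0.02 to 0.01, and those of differently numbered arrays at -0.03 to 0.02. No pairing by number was seen, though 3 arrays per group cannot exclude one. The replicate block moved the count at an unadjusted p under 0.05 with 1.5-fold to 54. Calls against background depended on the limit for every member but Ifitm3, which passed on 2 arrays throughout. At the 90th percentile of the receptor genes Ifitm1, Ifitm2 and Ifitm7 passed on 6 arrays, Ifitm5 on 5 and Ifitm6 on 1, and at the 99th these 5 passed on none. Most members lie near background, where signal differences can understate differences in RNA, which was not tested.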
